A study of Drosophila melanogaster with 2 samples.

Results

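The vacuolar ATPase genes were taken as every protein-coding gene of the Ensembl BDGP6 annotation whose symbol starts with Vha, which gave 33 of 13968 genes on the 7 chromosomes and arms. Their occupancy by the homeodomain protein lms (lateral muscles scarcer, CG13424) was read from ChIP-seq peak lists of whole Drosophila melanogaster embryos aged 6 to 18 hours. All embryos came from a transgenic line that carries CG13424 with GFP at its C terminus, sexes were pooled, and the chromatin was precipitated through GFP. There was 1 group of 2 biological replicates and no other condition, so nothing could be tested between conditions. The source name states these hours, and a separate age label differs from it. Which cells express the fusion, and from how many copies, is not stated in the labels. lms is known from a few lateral body wall muscles, whereas the chromatin came from all cells of the embryo.

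The vacuolar ATPase is a rotary pump that uses ATP to move protons across membranes. Its V1 sector lies in the cytosol and splits ATP, and the turning of a central stalk drives a ring of proteolipids in the membrane sector, V0, past a fixed subunit with the proton half-channels. The pump acidifies lysosomes, endosomes and secretory vesicles in every cell, and in insects it also sits in the plasma membrane of epithelia such as the Malpighian tubules. Most subunits are encoded in Drosophila by 1 gene with broad use, and several also by further copies, some of them known mainly from testis or gut. The 33 members were divided into 14 main copies, 1 for each subunit kind, and 19 other copies. The 14 main copies were also the 14 taken as broadly used, and of the other copies 8 were taken as tissue-restricted and 11 left unclear. These classes rest on general knowledge, and no expression value was analysed here. ATP6AP2, an accessory protein that was once called VhaM8.9, no longer carries a Vha symbol and is not a member.

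The deposit holds 4 lists of peaks. One was called on each replicate and one on both together, each with 30000 peaks, and a further list, called the IDR list here after the irreproducible discovery rate used to make it, holds 7521. The IDR list equals the 7521 peaks of highest signal in the pooled list. A peak is represented by its summit, and its signal is the authors' score, whose scale is not stated and whose median was 50.7 in replicate 1 and 13.7 in replicate 2. Signals are therefore not compared between lists, and ranks within a list are used, with rank 1 as the highest. The number of reads behind the lists is unknown, and the replicate lists share 1 control alignment.

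Among the V-ATPase genes, 12 of 33 had an IDR summit within 500 bp of a transcription start site (TSS) of their own, called an own-promoter summit here, against 28.8% of all protein-coding genes. An IDR summit anywhere in the window made of the gene body plus 2 kb upstream was found for 13 of 33, against 40.0% of all protein-coding genes and 37.1% of those whose window was as long as a member's, between 2494 and 13825 bp. In the IDR list the family as a whole was thus near the background. The division by copy was uneven. Of the 14 main copies 9 had an own-promoter summit, and of the 19 other copies 3 had one. Of the 8 tissue-restricted copies 1 did, and that summit lies nearer to the start of a neighbouring gene. The same held for the only own-promoter IDR summits of the main copies Vha26, Vha36-1 and Vha44 and of the other copy Vha68-1. It also held for the higher own-promoter summits of the main copies Vha100-2 and VhaM9.7-b. The numbers given are counts of genes beside the background of all genes, and no test of the division was made.

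The highest peaks of each replicate, 7521 in number, gave the same order. In replicate 1, 9 main and 3 other copies had an own-promoter summit, 12 in all, against a background of 28.5%. In replicate 2 the numbers were 9 and 5, 14 in all, against 30.4%. The same 10 members were found in both. Over the full lists the counts were 20 of 33 in the pooled list (background 53.4%), 21 in replicate 1 (53.4%) and 20 in replicate 2 (52.5%), with 18 members found in both replicates. For the wider window they were 25 (64.6%), 24 (63.9%) and 24 (71.6%). The share of all coding genes found in both replicates was not computed, so the counts of 10 and 18 have no background. Main copies accounted for 13 of the 20 in the pooled list, so that 13 of 14 main copies and 7 of 19 other copies had at least a weak own-promoter peak.

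**Figure D1:**
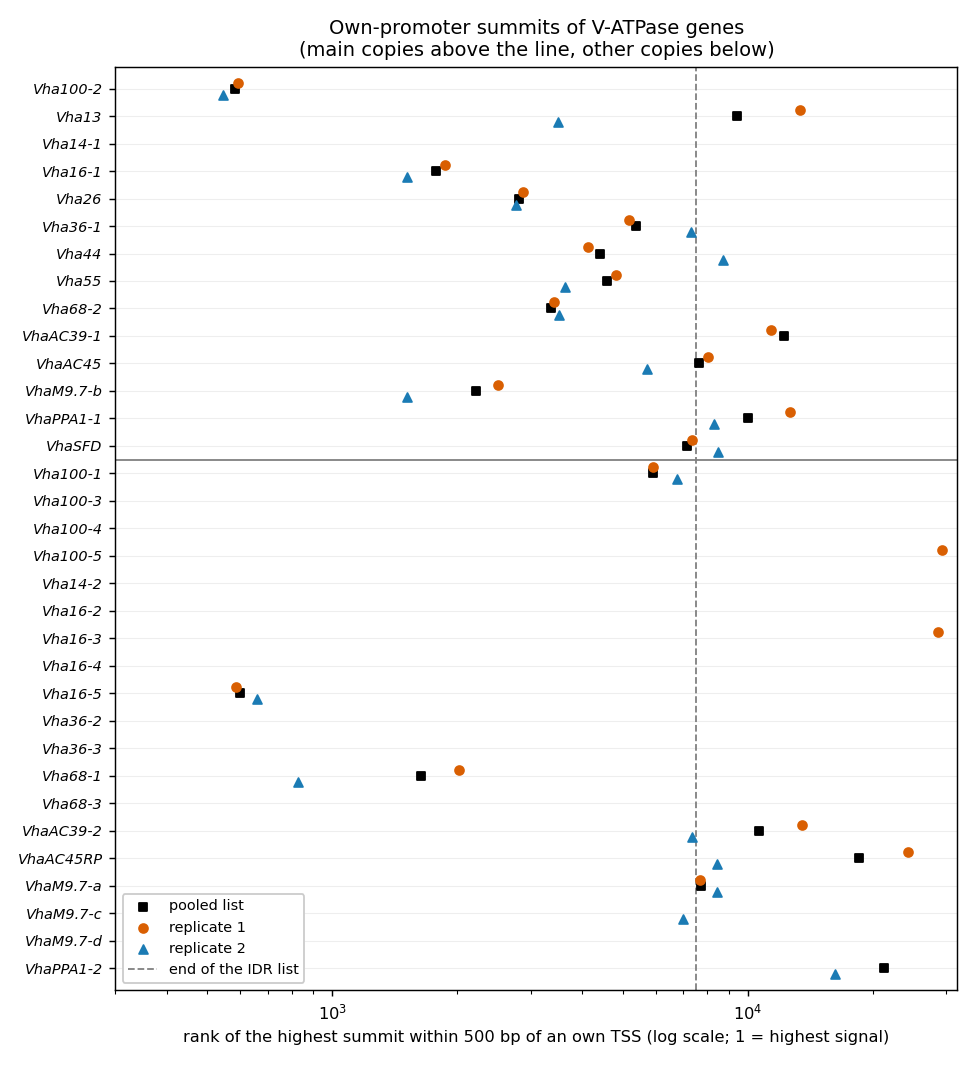
Each row is 1 of the 33 genes, and the horizontal axis is the rank (log scale) of its highest summit within 500 bp of an own TSS in the pooled list (black squares), replicate 1 (orange circles) and replicate 2 (blue triangles). The dashed line marks the end of the IDR list at 7521, which 9 main copies and 3 other copies reach in the pooled list, and a row with no symbol has no own-promoter summit in any list.

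By sector, 7 of 13 V1 genes, 5 of 18 V0 genes and 0 of 2 accessory genes had an own-promoter summit in the IDR list, beside the 28.8% of all coding genes. The highest peaks of replicate 1 again gave 7 of 13 V1 and 5 of 18 V0 genes (28.5% of all coding genes). The V1 and V0 sectors were closer in the highest peaks of replicate 2, with 6 of 13 and 7 of 18 (30.4%). In the pooled list they had 8 of 13 and 10 of 18 (53.4%). Subunit A, which carries the catalytic sites, has 3 genes on 2L. Vha68-2, the main copy, had its summit 128 bp upstream of its start, with rank 3357 in the IDR list, 3414 in replicate 1 and 3505 in replicate 2. This peak spans chr2L:12974093-12974307 in dm6, and its signal was 298 in the IDR list, 241 in replicate 1 and 53.6 in replicate 2. Vha68-1 ranked higher, at 1636, 2014 and 827, with a summit 194 bp upstream in the peak chr2L:13004072-13004494 (signal 544, 383 and 169). That summit was 179 bp upstream of mTor, the kinase that senses nutrients at the lysosome, whose gene starts 373 bp away on the opposite strand. Vha68-3, which starts 178 bp past the end of Vha68-2 and is known from testis, had no summit in its window in any of the 4 lists. The 101 bp around the 2 summits of the bound copies, from the RefSeq genome, are shown because they differ in the motifs they hold. The Vha68-2 window (dm6, chr2L:12974144-12974244, plus strand) holds GGTCACAC, the core of the element bound by M1BP, and GAGAG, both on the opposite strand. The Vha68-1 window (chr2L:13004251-13004351, minus strand) holds TATAAA on the opposite strand. Capitals mark these matches, here and in the sequences that follow, and all are written 5′ to 3′ on the strand of the V-ATPase gene.
Vha68-2: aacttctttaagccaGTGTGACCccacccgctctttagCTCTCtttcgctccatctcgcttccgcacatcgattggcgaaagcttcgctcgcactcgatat
Vha68-1: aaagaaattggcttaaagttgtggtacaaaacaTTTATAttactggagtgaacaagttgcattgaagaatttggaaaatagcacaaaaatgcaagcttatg

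Subunit B, which also binds nucleotides, has a single gene, Vha55. Its summit lay 2 bp inside the start, in the 5′ UTR, with rank 4594 in the IDR list, 4831 in replicate 1 and 3634 in replicate 2. The peak chr3R:12627745-12627899 had signals of 220, 176 and 51.5 in these lists. Measured from the nearest own start, this was the only own-promoter IDR summit on the downstream side, and in replicate 2 the summit lay 52 bp upstream. Vha26 (subunit E of the peripheral stalk) had a summit 214 bp upstream, between its start and that of noi, 304 bp away, and 90 bp from noi. Its ranks were 2809, 2873 and 2765, close together in all lists, and the signals of the peak chr3R:5591451-5591707 were 349, 280 and 67.3. VhaSFD (subunit H, which regulates the coupling of V1 and V0) was the weakest bound member, with rank 7136 in the IDR list, 7335 in replicate 1 and 8480 in replicate 2. Its summit was 41 bp upstream, in chr2L:16727662-16728071 (signal 143, 115 and 22.5). The VhaSFD window (chr2L:16727817-16727917, minus strand) holds TATCGATA, the element recognised by DREF, while those of Vha55 (chr3R:12627777-12627877, minus strand) and Vha26 (chr3R:5591499-5591599, plus strand) hold none of the 7 motifs searched.
VhaSFD: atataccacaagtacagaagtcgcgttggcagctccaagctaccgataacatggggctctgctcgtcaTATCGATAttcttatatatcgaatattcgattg
Vha55: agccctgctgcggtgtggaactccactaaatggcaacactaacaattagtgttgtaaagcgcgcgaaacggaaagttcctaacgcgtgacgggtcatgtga
Vha26: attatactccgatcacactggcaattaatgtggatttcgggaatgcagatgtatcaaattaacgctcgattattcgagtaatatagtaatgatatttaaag

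In the membrane sector, subunit a is encoded by 5 genes. Vha100-2, the main copy, held the highest peak of all own-promoter summits of the family. It ranked 584 in the IDR list, 593 in replicate 1 and 546 in replicate 2, and lay in an intron, in chr3R:18397010-18397401 (signal 1103, 889 and 220), 282 bp upstream of an internal start of Vha100-2. The same summit was 215 bp downstream of a start of Vti1b, a gene on the opposite strand that encodes a membrane fusion protein. A weaker summit of rank 4876 (4240 in replicate 1, with signals of 208 and 197), in chr3R:18399203-18399612, lay 239 bp upstream of the first start, and 1 more of rank 2958 lay in an intron 3277 bp from the nearest own start. The summit of rank 4876 also lies between starts on opposite strands, because Vti1b has a further start upstream of this first start. A pooled summit of rank 9623 was 446 bp upstream of Vha100-2 and 94 bp upstream of that Vti1b start. Vha100-1, known for its role at synapses, ranked 5931, with a summit 61 bp upstream, and its own-promoter ranks in the replicates were 5911 and 6755. The peak chr3R:29130927-29131336 had a signal of 173, beside 144 in replicate 1 and 28.5 in replicate 2. In replicate 2 this better-ranked summit lay 195 bp upstream of Vha100-1 and 26 bp from dgt6, and a weaker one of rank 12926 and signal 15.4, 4 bp inside Vha100-1, was the one within 150 bp of the IDR summit. Vha100-4 and Vha100-3 had no own-promoter summit in any list, and Vha100-5 had only 1 near the end of the replicate 1 list, at rank 29321. The windows of Vha100-2 (chr3R:18397160-18397260, minus strand) and Vha100-1 (chr3R:29131082-29131182, plus strand) are shown for the motifs they hold. The first holds TAATTA, the core that many homeodomains bind, at its downstream edge, and GAGAG on the opposite strand, and the second holds TATAAA on either strand.
Vha100-2: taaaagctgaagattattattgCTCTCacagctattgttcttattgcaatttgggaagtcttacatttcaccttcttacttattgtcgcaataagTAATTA
Vha100-1: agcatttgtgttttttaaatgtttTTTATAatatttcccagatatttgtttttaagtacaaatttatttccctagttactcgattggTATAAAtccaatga

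Subunit e, a small membrane protein, has 4 genes, and VhaM9.7-b is the main copy. It had 2 IDR summits at its promoter, 312 and 110 bp upstream, with ranks 2222 and 3809 and signals of 431 and 264. The peaks are chr3L:21539395-21539693 and chr3L:21539688-21539824. In replicate 1 they ranked 2508 and 4122, with signals of 318 and 203. In replicate 2 a single peak of rank 1508 and signal 110 lay between them, 257 bp upstream, and was within 150 bp of both. COX8, which encodes a subunit of the respiratory chain, starts 415 bp away on the opposite strand, and the first summit is 103 bp from it. VhaM9.7-a just missed the IDR list, at rank 7736 of the pooled list, 7685 in replicate 1 and 8420 in replicate 2. VhaM9.7-c had an own-promoter summit of rank 6987 in replicate 2, 15 bp upstream of its start, and none in replicate 1, and VhaM9.7-d had none in any list. Vha16-5, a ring gene, was the single tissue-restricted copy with an own-promoter IDR summit, at rank 600 in the IDR list, 585 in replicate 1 and 657 in replicate 2. The peak chr2L:10737150-10737493 had signals of 1087, 897 and 197. Its summit lay 280 bp upstream of Vha16-5 but 22 bp upstream of CG12299, which starts 302 bp away on the opposite strand. The nearer VhaM9.7-b window (chr3L:21539702-21539802, plus strand) holds TATAAA on the opposite strand at both marked places, and the Vha16-5 window (chr2L:10737273-10737373, minus strand) holds none of the motifs.
VhaM9.7-b: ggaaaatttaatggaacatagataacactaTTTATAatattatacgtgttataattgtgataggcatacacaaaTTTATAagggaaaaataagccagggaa
Vha16-5: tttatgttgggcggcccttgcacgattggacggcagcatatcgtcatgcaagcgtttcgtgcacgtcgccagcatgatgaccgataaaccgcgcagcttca

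Across the 14 own-promoter IDR summits, which belong to 12 genes, the 101 bp windows had a median GC content of 33.7%, with a range of 23.8 to 62.4%. All 3264 IDR summits within 500 bp of a coding TSS had a median of 30.7%. The motifs were searched on both strands, and a match describes the letters only. TATAAA was in 3 of the 14 windows, against 24.9% of those at coding starts, and GAGAG in 3, against 7.69%. TATCGATA was in 1 window (3.40% at coding starts) and GGTCACAC was in 1 (1.78%). CACGTG was in 1 (0.797%), as was CAGCTG (4.14%), and TAATTA was in 1 (11.7%). The windows with CACGTG, the core of the sequence bound by Mitf-type factors that are known to act on V-ATPase genes, and with CAGCTG were both that of Vha44. TAATTA, the homeodomain core, was thus present at 1 of 14 summits, and no reading is made from its absence at the others. These counts were not tested against the shares.

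The remaining bound main copies are on 2R, and their sequences are not shown. Vha16-1, which encodes the proteolipid of the ring, ranked 1771 in the IDR list, 1862 in replicate 1 and 1514 in replicate 2, with a summit 163 bp upstream, in chr2R:6633070-6633433 (signal 515, 407 and 110), and no head-to-head neighbour. It had 2 more IDR summits in an intron, 1672 and 3943 bp from the nearest own start. Vha44 (subunit C) ranked 4420, 4114 and 8726, and Vha36-1 (subunit D of the central stalk) ranked 5390, 5179 and 7295. The Vha44 peak, chr2R:16336610-16336778, had signals of 229, 203 and 21.9, and the Vha36-1 peak, chr2R:15541298-15541467, of 189, 164 and 26.3. Their summits were 74 and 50 bp upstream, in the gaps of 123 and 72 bp that separate them from Hmgs and CG8187, so the 2 genes of each pair cannot be told apart by position.

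A further 5 main copies had no own-promoter summit in the IDR list. VhaAC45, an accessory glycoprotein, was just outside it at rank 7643 of the pooled list, and ranked 8012 in replicate 1 and 5737 in replicate 2. Vha13 (subunit G) was at rank 13397 in replicate 1 and 3488 in replicate 2. The second ring proteolipid VhaPPA1-1 ranked 10018 in the pooled list, 12615 in replicate 1 and 8281 in replicate 2. VhaAC39-1 (subunit d, which links ring and stalk) ranked 12258 in the pooled list and 11376 in replicate 1, and had no own-promoter summit in replicate 2. For these 4 genes a peak was present but weaker than the IDR list admits. Vha14-1 (subunit F) was the exception, with no summit in its window in any list. The nearest summit lay 228 bp past its 3′ end, ranked 396 in the IDR list, 381 in replicate 1 and 504 in replicate 2, and was 242 bp upstream of Gmppa.

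Placement followed that of other genes. Taking for each of the 12 bound members the summit nearest to an own start, the median lay at -119 bp, the quartiles were -199 and -58.3 bp, and 11 of 12 were upstream. All 4029 coding genes with an own-promoter IDR summit gave a median of -129 bp, quartiles of -205 and -66 bp and 88.4% upstream. Read from the 7521 best peaks of each replicate, the members' median was -119 bp in replicate 1 and -157 bp in replicate 2. The median rank of the best own-promoter summit of each bound member was 3083, from 584 to 7136, and over all bound coding genes it was 2933 (n = 4029). Of the 14 own-promoter IDR summits, 13 had a summit within 150 bp in both replicate lists. The exception was the weaker upstream summit of Vha100-2, whose nearest replicate 2 summit was 174 bp away. Both VhaM9.7-b summits were matched to the same replicate 2 peak, of rank 1508. The IDR list was made from these lists, so the matches are no independent check. Their share among all IDR summits was not computed.

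**Figure D2:**
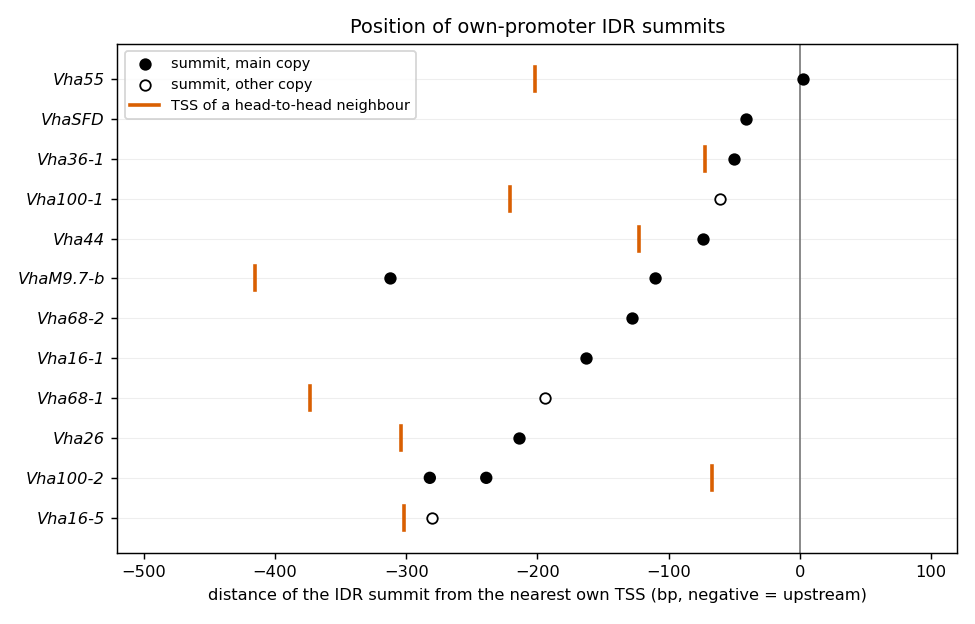
Circles show the 14 own-promoter IDR summits of 12 genes by distance from the nearest own TSS in bp (negative is upstream), filled for main copies and open for other copies, and orange ticks show the nearest head-to-head TSS. All circles but that of Vha55 lie upstream, and those of Vha36-1, Vha100-1, Vha44, VhaM9.7-b, Vha68-1, Vha26 and Vha16-5 lie between the 2 starts. For Vha100-2 the tick refers to the internal start. Its summit at -239 bp also lies between starts on opposite strands, since a further Vti1b start, not drawn, is upstream of its first start.

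Promoters shared with a neighbour were counted for the members and for all coding genes. A head-to-head neighbour was defined as a coding gene on the opposite strand that starts within 1000 bp upstream of an own start. Among all protein-coding genes 50.3% of those with such a neighbour had an own-promoter IDR summit, and 16.7% of those without. Of the V-ATPase genes 9 of 14 with a neighbour were bound and 3 of 19 without. Thus 9 of the 12 bound members had one, and so did 63.1% of all bound coding genes. Of the 14 own-promoter summits 7 were nearest to an own start and 7 to the start of a neighbour.

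Neighbours were also counted by copy. Main copies had a head-to-head neighbour in 9 of 14 cases and other copies in 5 of 19. With a neighbour, 6 of 9 main and 3 of 5 other copies were bound. Without one, 3 of 5 main copies were bound, namely Vha16-1, Vha68-2 and VhaSFD, and 0 of 14 other copies. In the 7521 highest peaks of replicate 1 the latter numbers were again 3 of 5 and 0 of 14. In those of replicate 2 they were 2 of 5 and 2 of 14, so the 0 was not found in both replicates. In the pooled list of 30000 they were 5 of 5 and 3 of 14. The share of all coding genes without a neighbour was computed for the IDR list only. Whether neighbouring genes play a part in the division was not tested. Main copies also had longer windows, with a median of 4907 bp against 3371 bp. The own-promoter count does not use the window but searches around every annotated own start. Among main copies Vha68-2 had 5 such starts, Vha55 had 3, and Vha16-1, Vha44 and Vha100-2 had 2 each. Among other copies Vha16-3, Vha36-3 and Vha100-1 had 2 each, and all remaining members had 1. The part that window length and number of starts play was not tested.

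**Figure D3:**
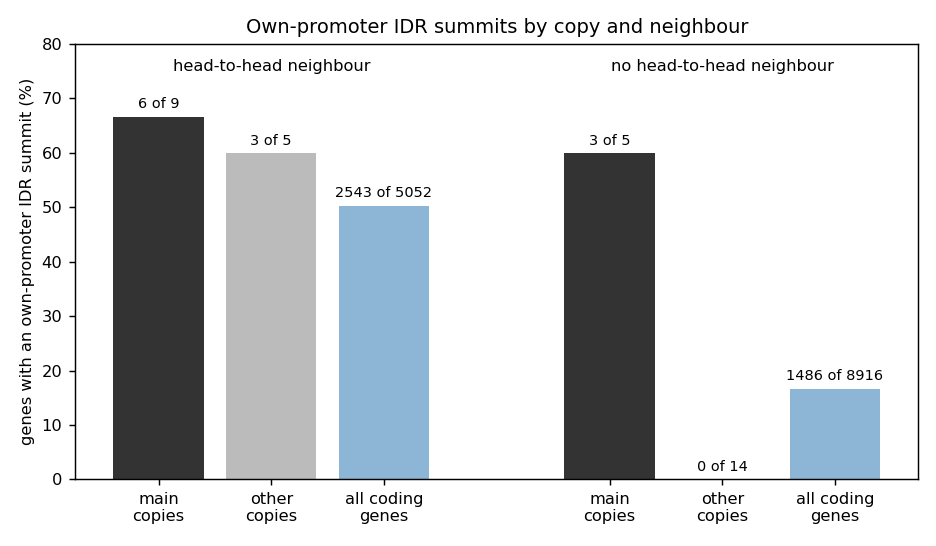
Bars give the percentage of genes with an own-promoter IDR summit among main copies, other copies and all protein-coding genes, with the numbers of genes above each bar, on the left for genes with a head-to-head neighbour within 1000 bp and on the right for genes without one. Other copies without a neighbour are at 0 of 14, and main copies without one at 3 of 5, beside 16.7% of all coding genes without one. In the highest peaks of replicate 2, which are not drawn, these counts were 2 of 14 and 2 of 5.

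A total of 8 members lie in 4 tandem pairs with gaps of at most 5000 bp, all transcribed in the same direction. In the pair of Vha68-2 and Vha68-3 and that of Vha100-2 and Vha100-4 the upstream gene is the main copy and had IDR summits. The second gene of each pair had no summit in its window in any list. The gap is 178 bp in the first pair and 517 bp in the second. VhaPPA1-1 and VhaPPA1-2 are not direct neighbours, since RpS5b starts in the gap of 2052 bp between them. VhaPPA1-1 had a summit of pooled rank 10018 at 73 bp upstream, while that of VhaPPA1-2 ranked 21322 and lay 494 bp inside the gene. The pooled summits of ranks 17920 and 24952 in the window of VhaPPA1-2 were nearest to RpS5b, 71 and 396 bp upstream of its start. Vha16-3 and Vha16-2, both other copies, had no own-promoter summit in the pooled list. The best summits of their windows there ranked 22771 and 28896.

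**Figure D4:**
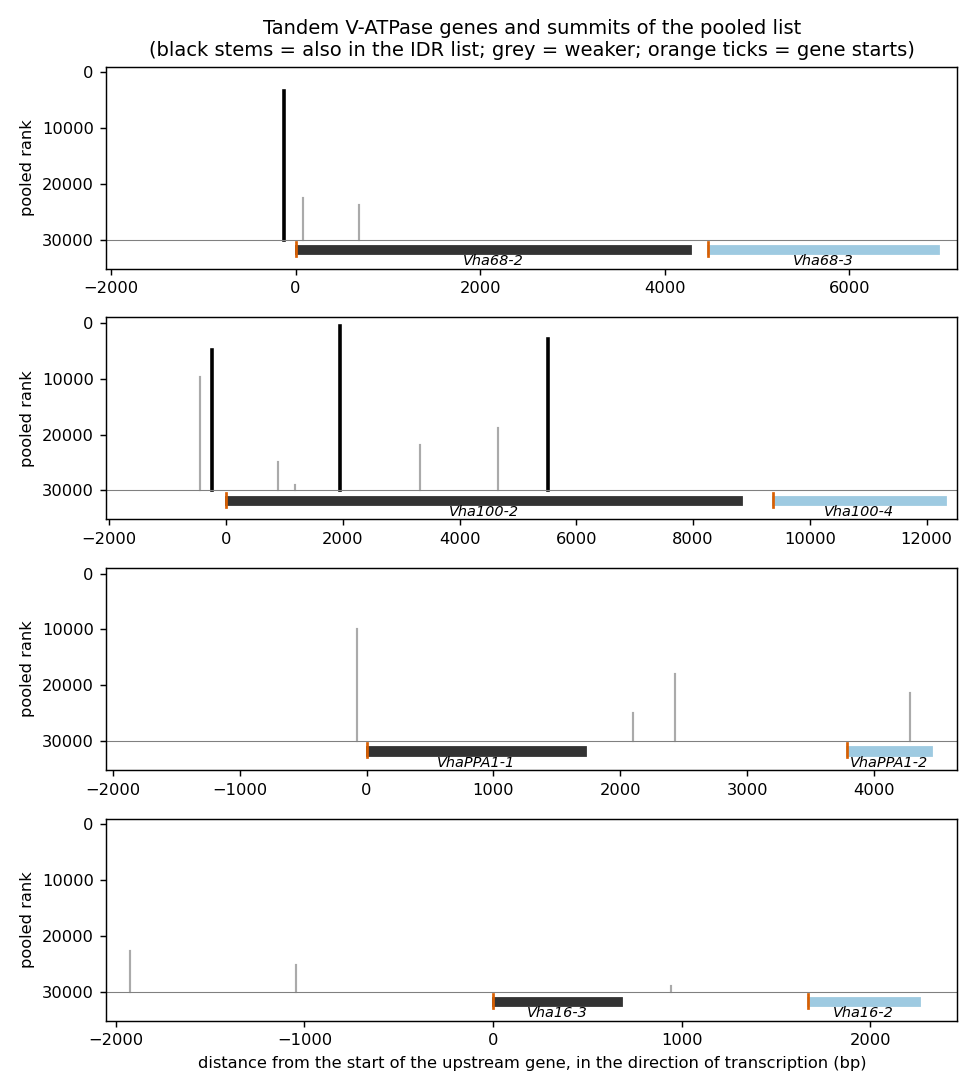
In each panel the boxes are the 2 genes of a tandem pair, placed by distance in bp from the start of the upstream gene, and the stems are summits of the pooled list, taller for a better rank (axis reversed, from 30000 at the base to 0). Black stems, which are also in the IDR list, occur at Vha68-2 and Vha100-2, and none lies over Vha68-3 or Vha100-4.

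One member had an IDR summit in its window but not at its own promoter. Vha36-3 (a copy of subunit D) lies on X, and its summit was 1728 bp upstream, ranked 2896 in the IDR list, 2948 in replicate 1 and 2898 in replicate 2, and was 189 bp upstream of AANATL7. The peak chrX:2582179-2582433 had signals of 338, 273 and 64.0. At the other end, 7 members had no summit in their window in any list, namely Vha14-1, Vha14-2, Vha16-4, Vha36-2, Vha68-3, Vha100-4 and VhaM9.7-d. The share of all coding genes without a summit in any list was not computed, so this count has no background. Of the other copies not yet described, VhaAC39-2 ranked 10665 in the pooled list, 13527 in replicate 1 and 7345 in replicate 2. VhaAC45RP ranked 18588, 24291 and 8422 in the same order. Both were ranked better in replicate 2, as were further members such as Vha13, VhaAC45, VhaPPA1-1, Vha55 and Vha68-1. Others, such as Vha44, Vha36-1, VhaSFD and VhaM9.7-a, were ranked better in replicate 1.

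Genes that work with the pump were compared as 3 lists, of which 30 of 31 symbols matched the annotation, and 21 of the 30 had an IDR summit in the same window (background 40.0%). No background matched for window length was computed for these genes. With each summit given only to the gene of the nearest coding start, 14 of the 30 had one, a count without a computed background. Own-promoter summits were found for 16 of 30 (background 28.8%). All 5 regulators and assembly genes had a summit in the window, and 4 at their own promoter. The highest was that of mtd (rank 466), a TLDc protein gene, followed by sky (1412), Rbcn-3A (3391), which encodes a part of the complex that reassembles the pump, Rbcn-3B (4920, at 1049 bp upstream and nearer to Edem1), and Mitf (5150). Of 10 nutrient-sensing genes 8 had a summit in the window and 6 at the promoter. Lamtor3, a subunit of the lysosomal scaffold for Rag GTPases, ranked 205, RagC-D 505, mTor 1636 and Rheb 1897. The RagC-D summit lay 1280 bp upstream, nearer to CG30373, that of Rheb, 179 bp upstream, was nearer to CG2931, and that of mTor is the one shared with Vha68-1. Of 15 genes for lysosomal membrane proteins and enzymes 8 had a summit in the window and 6 at the promoter. The best were cathD, encoding cathepsin D (1082, at 1771 bp upstream and nearer to phr), CtsL1 (2061, at 207 bp upstream and nearer to Rpn13), Sap-r (2512, at 923 bp inside the gene) and CtsB (3060). Gba1a, Gba1b, Cln3, Trpml, Npc1a, ClC-b and ClC-c had no IDR summit. ATP6AP2, the accessory gene left out by its symbol, had an IDR summit 49 bp upstream with rank 2058, and ranked 2097 in replicate 1 and 2001 in replicate 2.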

How the data were processed

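Peaks of 2 biological replicates of 1 group were used. The authors' deposited notes list, for each replicate list and for the pooled list, the alignments it was made from, with 1 control alignment common to all, and name the replicate and pooled lists as inputs of the IDR list, on dm6. Aligner, caller and settings are not stated there. Per peak the authors deposited a signal score of unstated scale, used for ranking, a −log10 q-value, not used for ranking because it is tied over the IDR list, and a summit offset. Replicate numbers came from the labels.

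Genes and start sites came from Ensembl release 115 (build BDGP6.54, per the file header), and sequence from the RefSeq release 6 genome, on the same coordinates, counted from 1. All peaks fit within the chromosome lengths. Summits were assigned to genes with Python 3.11.15, numpy 2.4.6 and pandas 2.3.3, and the assignment was tested on simulated data. All 33 members were named, with ranks for those bound at an own promoter or through a neighbour, and at least the 4 highest partners per list. Tests were not made, because there is 1 group and members are not replicates. Members, classes, partner genes and motifs were chosen with earlier results of these data known, and head-to-head neighbours were defined after the summits had been seen. Tpp1 was not matched in the annotation. Values were also computed with other peak sets, from single replicates, and with another gene window, promoter width, class or motif window. 1 IDR summit in the window of VhaSFD is not reported here.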

Additional observations from a re-analysis of the deposited data

How the results depend on the processing

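Of 79 alternative values 53 stayed within the range set for them and 26 moved. With all pooled peaks, 25 members had a summit in the window and 20 at an own promoter, 7 of them other copies and 3 tissue-restricted. As a share, 25 of 33 is above the 64.6% of all coding genes in that list, for which no share matched for window length was computed. The 13 of 33 of the IDR list is near 40.0%, and near the 37.1% of genes with a window as long as a member's. Among the IDR peaks of signal above the median of the list, 8 had a summit in the window and 7 at an own promoter, 5 of them main copies and therefore broadly used. With 5 kb upstream 20 members had a summit. The share of all coding genes was not computed for that window or for the peaks above the median signal, so these counts have no background. With each IDR summit given only to the gene of the nearest coding start, 10 members and 14 partner genes had one, again without a computed share. With 250 bp promoters 0 tissue-restricted members were bound, and with unclear members counted as tissue-restricted 3. With 1 replicate left out, 13 to 15 members had a summit in the window, the other copies ranged from 3 to 5, the tissue-restricted ones from 1 to 2 and the median position from -157 to -119 bp, and 12 to 14 members had an own-promoter summit. Without replicate 1, TATCGATA and CACGTG were at 0 summits and TAATTA at 2. Within 25 bp GGTCACAC, CACGTG and TAATTA were at 0 summits and GAGAG at 1. Within 100 bp GGTCACAC and CACGTG were at 2, CAGCTG and TAATTA at 3 and TATAAA at 5. Wider windows, wider peak lists and other classes raise counts by construction, and the cause of the other shifts was not tested. No paired analysis was possible because there is a single group. Read depth, unknown here, limits how far absent peaks can be read.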

Other observations

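Vha16-1 carried the most summits of the family outside its promoter. The gene and its 2 kb upstream held 12 summits in the pooled list, 14 in replicate 1 and 9 in replicate 2, of which 3 reached the IDR list. Vha100-2 held 8, 8 and 3 in the same lists. Their windows, of 9849 and 10847 bp, were the longest after that of Vha44 (13825 bp), which held 3 summits in each of these lists. IDR summits also lay just past the end of members without 1 in their window. They were 79 bp past VhaAC39-2 (rank 6241), where the summit was 76 bp upstream of unk, and 369 bp past VhaAC45RP (rank 7191). Another lay 1019 bp past the end of Vha68-3, with rank 7137 in the IDR list and 6762 in replicate 1. In replicate 2 the nearest summit was 897 bp past the end, with rank 9863.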
